A study of Mus musculus with 12 samples.

Results

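Aldh3b2, Mgam and Npy2r are 3 genes that were chosen because their RNA had some of the largest falls, with no overlap between groups, in mouse fetal testes after conditional deletion of the nuclear receptor gene Nr2f2. They are described here with their relatives Aldh3b1, Aldh3b3, Npy1r and Npy5r, which makes 7 of the 24470 genes in the count table, found by symbol. The choice rests on the cKO against control contrast, so the falls of these 3 genes are given as descriptions without a test. RNA-seq was performed on whole fetal testes at E14.5. Each of the 12 libraries was made from RNA of 3 pooled testes. The 6 control libraries came from Nr2f2 f/f embryos, which carry floxed Nr2f2 alleles without Cre. The 6 cKO libraries came from Wt1 CreER x Nr2f2 f/f embryos, in which a tamoxifen-dependent Cre is driven by Wt1, a gene active in somatic progenitors of the gonad. According to the study, tamoxifen was given at E11.5 and E12.5. Deletion is restricted to cells with Wt1 activity at that time, and is not complete.

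Members of the ALDH3B family oxidize aldehydes, mainly long-chain ones that arise from lipids, to the corresponding acids. Mgam encodes maltase-glucoamylase, a membrane-bound alpha-glucosidase best known for the last steps of starch digestion in the small intestine. Npy2r, Npy1r and Npy5r encode G protein-coupled receptors for neuropeptide Y and peptide YY. NPY2R prefers peptides shortened at the N-terminus, a form produced by the peptidase DPP4, whereas NPY1R requires the full-length peptide. Neuropeptide Y is a transmitter of sympathetic nerves, which act on vascular smooth muscle through NPY1R.

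In mm10, Aldh3b2 (Entrez Gene 621603) lies at chr19:3972328-3981665 on the plus strand, only 1889 bases beyond Aldh3b3 (Entrez Gene 73458, chr19:3958808-3970438, plus strand). Aldh3b1 (Entrez Gene 67689, chr19:3913491-3929716, minus strand) ends 29091 bases before Aldh3b3. The coding sequence of Aldh3b2 was 90.5% identical to that of Aldh3b3 and 83.6% identical to that of Aldh3b1, with a longest identical run of 255 bases between Aldh3b2 and Aldh3b3. Of all windows of 100 bases in the Aldh3b2 transcript, 14.0% also occurred in Aldh3b3, and a read that lies wholly in such a window does not tell the 2 genes apart. The stretch of 120 coding bases in which Aldh3b2 and Aldh3b3 differ most is shown because reads that cover it separate the 3 genes. It was read from GENCODE M21 transcripts, and capitals mark bases unlike Aldh3b2, 37 in Aldh3b3 and 36 in Aldh3b1.
Aldh3b2, coding bases 49 to 168: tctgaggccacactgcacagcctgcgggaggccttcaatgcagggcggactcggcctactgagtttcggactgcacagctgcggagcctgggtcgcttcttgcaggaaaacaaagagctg
Aldh3b3, coding bases 49 to 168: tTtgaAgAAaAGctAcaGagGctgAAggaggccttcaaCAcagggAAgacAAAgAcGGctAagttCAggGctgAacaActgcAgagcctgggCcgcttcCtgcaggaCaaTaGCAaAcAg
Aldh3b1, coding bases 10 to 129: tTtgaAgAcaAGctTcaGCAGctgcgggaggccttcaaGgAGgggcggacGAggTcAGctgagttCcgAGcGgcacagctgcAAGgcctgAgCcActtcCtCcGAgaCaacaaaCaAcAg

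Mgam (Entrez Gene 232714) lies at chr6:40628831-40769123 on the plus strand and has 48 exons in its longest transcript. Npy2r (Entrez Gene 18167) lies at chr3:82538383-82548085 on the minus strand. Npy1r (Entrez Gene 18166, chr8:66697422-66706798, plus strand) and Npy5r (Entrez Gene 18168, chr8:66679965-66688094, minus strand) point away from each other, 9327 bases apart. No window of 100 bases in Mgam, Npy2r, Npy1r or Npy5r occurred in another gene's transcripts. The promoters of Mgam, Npy2r and Npy1r are shown because the RNA of Mgam and Npy2r fell and that of Npy1r was not called. Each is the 250 bases before the annotated start, from RefSeq on GRCm38.p6, and capitals mark the TATA box letters TATAAA.
Mgam, chr6:40628581-40628830, plus strand: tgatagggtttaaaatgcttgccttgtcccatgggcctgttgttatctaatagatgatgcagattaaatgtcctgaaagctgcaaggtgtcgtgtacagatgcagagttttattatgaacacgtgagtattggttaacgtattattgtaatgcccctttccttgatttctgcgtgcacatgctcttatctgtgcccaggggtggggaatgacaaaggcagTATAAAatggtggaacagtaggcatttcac
Npy2r, chr3:82548086-82548335, minus strand: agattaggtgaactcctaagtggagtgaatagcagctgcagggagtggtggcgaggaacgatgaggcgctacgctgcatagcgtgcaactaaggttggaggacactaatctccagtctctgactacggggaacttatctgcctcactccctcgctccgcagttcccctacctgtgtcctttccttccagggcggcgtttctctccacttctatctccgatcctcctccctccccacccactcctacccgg
Npy1r, chr8:66697172-66697421, plus strand: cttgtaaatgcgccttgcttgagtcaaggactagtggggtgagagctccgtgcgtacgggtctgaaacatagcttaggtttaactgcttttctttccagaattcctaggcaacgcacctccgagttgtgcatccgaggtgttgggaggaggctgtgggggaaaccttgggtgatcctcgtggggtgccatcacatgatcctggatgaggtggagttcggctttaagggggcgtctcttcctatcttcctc

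TATAAA began 30 bases before the start of Mgam, and it was absent on both strands from the Npy2r and Npy1r windows of 250 bases before to 50 bases after the start. It occurred on either strand in 13.6% of the 32851 RefSeq promoters of that length. The hexamer AGGTCA, a half-site of the nuclear receptor class to which NR2F2 belongs, was searched on both strands as well. It was absent from the windows of Mgam, Npy2r, Npy1r, Npy5r and Aldh3b3, present at 2 places in that of Aldh3b1, and present in 16.3% of all promoters. Of 7 members, 6 had an entry in the promoter table, and Aldh3b2 had none. The Mgam promoter had 43.0% G and C with 5 CpG, the Npy2r promoter 57.7% with 14 CpG, and the medians over all promoters were 52.7% and 7. The promoters of Mgam and Npy2r thus fall on opposite sides of the median composition.

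Total counts ranged from 7044531 to 39965574 in control and from 7322959 to 59404778 in cKO libraries. CPM denote counts after TMM scaling of library sizes, log2 fold changes are for cKO over control, and a gene was called when the adjusted p of edgeR's quasi-likelihood test was under 0.05 among 15572 genes tested. Of these, 4.85% were called lower and 3.28% higher. The targeted gene Nr2f2 averaged 175.5 ± 8.87 CPM in the controls and 75.9 ± 24.5 CPM in the cKO (SD, n = 6 each; log2 fold change -1.21, SE 0.16, edgeR adjusted p = 0.000548). Xist, the RNA that marks XX cells, reached 304 to 891 CPM in 4 libraries, which were control replicate 1 and cKO replicates 3, 5 and 6. It stayed at 5.15 to 7.68 CPM elsewhere. The same 4 libraries had 96.4 to 205 CPM summed over 5 ovarian markers, against 26.9 to 42.3 CPM in the remaining 8. This goes against their label as testis in part, and the members' values below are given with all 12 and with the 8 low-Xist libraries (5 control, 3 cKO).

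Aldh3b2 RNA was low in control testes and lower still in every cKO pool. In control libraries 1 to 6 it measured 2.33, 3.17, 3.19, 3.58, 3.75 and 4.19 CPM. In cKO libraries 1 to 6 it measured 0.902, 1.52, 0.747, 0.563, 0.271 and 0.402 CPM. All 6 cKO libraries lay below every control, and the lowest control was 1.53 times the highest cKO, which was replicate 2. Over all genes tested, 3.13% had every cKO library below every control, and this pattern was part of how Aldh3b2, Mgam and Npy2r were chosen. The mean fell from 3.37 ± 0.636 to 0.734 ± 0.447 CPM (SD, n = 6 each), or 21.8% of control, a log2 fold change of -2.18 (SE 0.30). These values rest on 445 counts in the controls and 119 in the cKO, with only 2 counts in cKO replicate 5. Over the 8 low-Xist libraries the log2 fold change was -1.92, and the lowest control (3.17 CPM) still exceeded the highest cKO (1.52 CPM).

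Aldh3b1, the ALDH3B family member with the highest RNA level in these testes, showed no comparable difference. Its 6 control libraries ranged from 32.3 to 40.7 CPM with a median of 35.6, and its 6 cKO libraries from 34.7 to 41.2 CPM with a median of 37.6, so the groups overlapped. The log2 fold change was 0.08 (SE 0.08, 95% interval -0.07 to 0.24, edgeR adjusted p = 0.517). With the low-Xist libraries alone it was 0.11 (edgeR adjusted p = 0.453). Per kilobase of transcript, the Aldh3b2 level was 8.39% of the Aldh3b1 level in control libraries (range 6.46 to 9.87%) and 1.75% in cKO libraries (range 0.702 to 3.90%), or 8.78% and 2.37% over the 8 libraries. Aldh3b3, the neighbour most similar to Aldh3b2, had 3 counts in all control libraries and 9 in all cKO libraries, and did not pass the filter on low counts. Even in cKO libraries Aldh3b2, with 119 counts, had more than Aldh3b3.

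**Figure D1:**
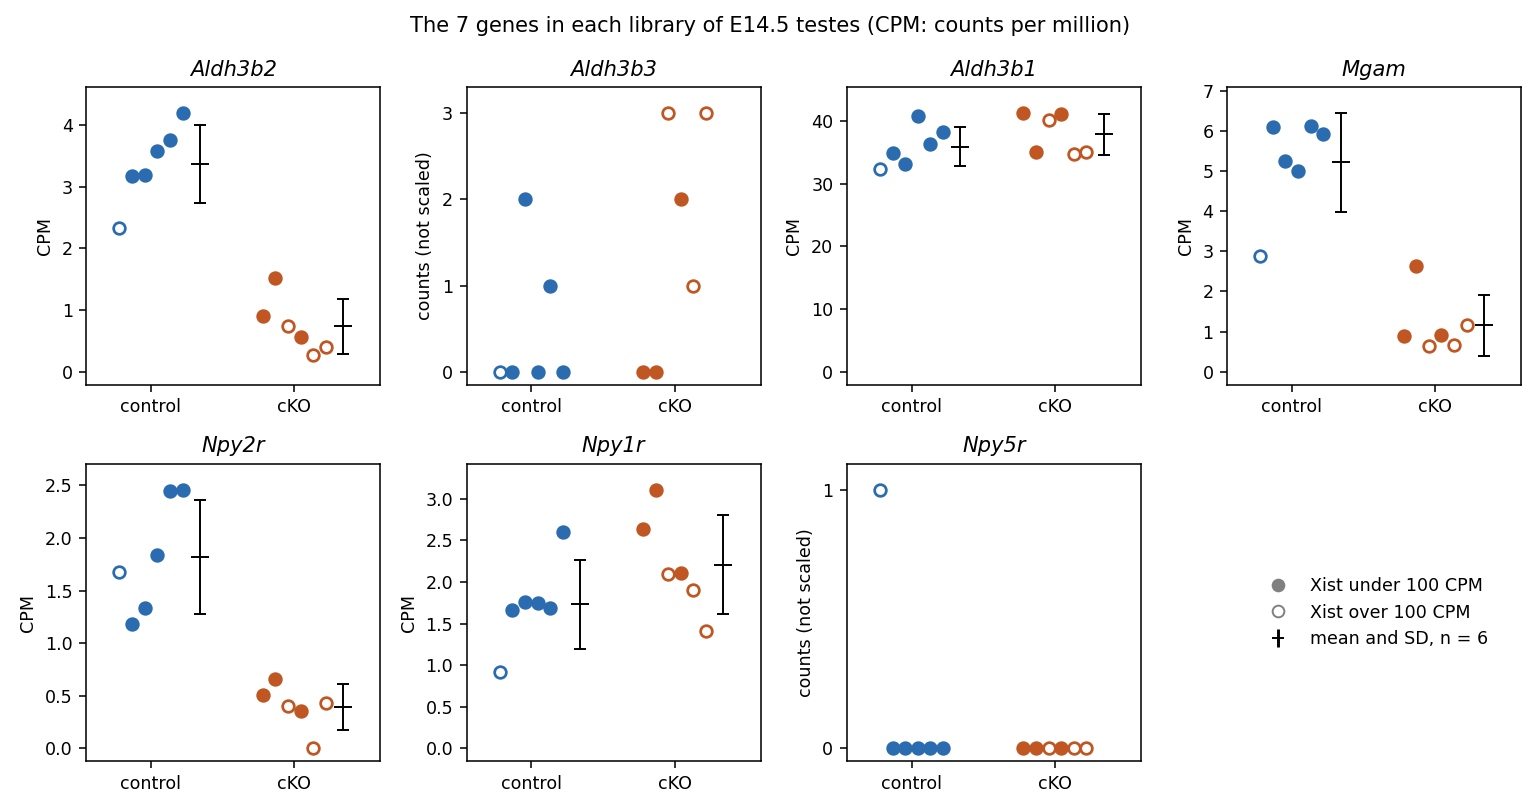
Each point is 1 library, in replicate order within each group, on a linear axis of CPM, or of unscaled counts for Aldh3b3 and Npy5r. Open points are the 4 libraries with Xist over 100 CPM, and bars are the mean and SD (n = 6). All cKO points of Aldh3b2, Mgam and Npy2r lie under the controls, and those of Aldh3b1 and Npy1r overlap them.

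Mgam had the highest CPM of the 3 chosen genes and the narrowest gap between groups. Control libraries 1 to 6 measured 2.89, 6.10, 5.26, 4.99, 6.12 and 5.93 CPM. The cKO libraries 1 to 6 measured 0.902, 2.64, 0.632, 0.919, 0.678 and 1.17 CPM. Control replicate 1 stood well under the other controls and cKO replicate 2 well over the other cKO libraries, and these 2 libraries came within a factor of 1.09 of each other without overlapping. The mean fell from 5.21 ± 1.23 to 1.16 ± 0.754 CPM (SD, n = 6 each), or 22.2% of control, with a log2 fold change of -2.18 (SE 0.31). Without control replicate 1 alone the log2 fold change was -2.32. Over the 8 libraries it was -2.06, with a lowest control of 4.99 CPM. Control replicate 1 has the highest Xist level of all libraries, and the part of Xist-positive tissue in its Mgam level was not tested. Sis, which encodes sucrase-isomaltase, the closest relative of maltase-glucoamylase, was singled out after its values were seen. It had 132 counts in control replicate 1 and 133 in cKO replicate 3, and between 0 and 2 counts in each of the 10 other libraries.

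Npy2r was the least abundant of the 3 chosen genes. In control libraries 1 to 6 it measured 1.68, 1.18, 1.33, 1.84, 2.45 and 2.46 CPM. In cKO libraries 1 to 6 it measured 0.505, 0.661, 0.402, 0.356, 0 and 0.435 CPM. Every control again lay above every cKO library, with the lowest control 1.78 times the highest cKO. The 0 in cKO replicate 5 allows a level of up to 0.407 CPM, 3 counts at its depth, and its 95% interval reaches 0.501 CPM. The 95% intervals of the other cKO libraries begin at 0.184 to 0.317 CPM, so replicate 5 cannot be ordered against them. The mean fell from 1.82 ± 0.542 to 0.393 ± 0.220 CPM (SD, n = 6 each), or 21.6% of control, with a log2 fold change of -2.05 (SE 0.31), from 232 counts in control and 76 in cKO libraries. It was -1.83 in the 8 libraries.

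Npy1r, the receptor of full-length neuropeptide Y on smooth muscle, was not called in either direction. Control libraries 1 to 6 had 0.920, 1.67, 1.76, 1.74, 1.68 and 2.60 CPM. The cKO libraries 1 to 6 had 2.64, 3.11, 2.10, 2.10, 1.90 and 1.41 CPM. The groups overlapped, with 2 cKO libraries above all controls. The log2 fold change was 0.40 (SE 0.24, 95% interval -0.07 to 0.86, edgeR adjusted p = 0.307), and 0.50 in the 8 libraries (edgeR adjusted p = 0.126). With Xist as a covariate it was 0.60 and was called higher (edgeR adjusted p = 0.0458), the only one of 21 alternatives to call it. Leaving out single libraries gave 0.25 (without control replicate 1) to 0.51. Npy5r had 1 count in control replicate 1 and none elsewhere.

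The balance between the NPY receptors differed between the groups. Per kilobase, the ratio of the Npy2r level to the Npy1r level averaged 1.00 in control libraries (range 0.631 to 1.63) and 0.160 in cKO libraries (range 0 to 0.276), without overlap. Over the 8 libraries it averaged 0.877 (range 0.631 to 1.30) and 0.171 (range 0.151 to 0.190). Since Npy2r was chosen on its fall, this ratio is a description and has no test. Npy4r had 30 counts in control and 21 in cKO libraries, and Npy6r 3 and 15, both under the filter.

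Of 10 genes on the NPY list, 5 were tested. Besides Npy2r, Npy, Dpp4 and Fap were called lower, against 4.85% of all genes tested, and Npy1r was not called. The median log2 fold change of the 5 tested genes, which include Npy1r and the chosen Npy2r, was -1.03, against 0.003 over all genes tested. Npy, the ligand, had 3.38, 2.64, 1.71, 2.45, 4.28 and 3.33 CPM in control libraries 1 to 6. In cKO libraries 1 to 6 it had 0.722, 0.727, 1.75, 0.474, 0.678 and 0.753 CPM, so 5 of 6 cKO libraries lay below all controls and replicate 3 lay just above the lowest control. Its log2 fold change was -1.73 (SE 0.31, edgeR adjusted p = 0.00323), and -2.12 in the 8 libraries (edgeR adjusted p = 0.00425).

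Dpp4, which encodes the peptidase that shortens neuropeptide Y, fell from 11.7 ± 4.81 to 5.59 ± 1.29 CPM (SD, n = 6 each; log2 fold change -1.03, SE 0.24, edgeR adjusted p = 0.0174). Without the high-Xist libraries its log2 fold change was -1.09, and it was not called (edgeR adjusted p = 0.0554). Fap, which encodes a related peptidase of mesenchymal cells, fell from 4.54 ± 1.41 to 2.27 ± 0.789 CPM (SD, n = 6 each; SE of the log2 fold change 0.26, edgeR adjusted p = 0.0320). On the log2 scale Fap fell by 1.00, and by 1.46 in the 8 libraries (edgeR adjusted p = 0.0222). It was not called in 5 of 21 alternatives, each with 1 library left out (edgeR adjusted p up to 0.0727). For both peptidases 5 of 6 cKO libraries lay below all controls. The other ligands were at the limit of detection, with 1 count of Pyy in each group and none of Ppy.

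**Figure D2:**
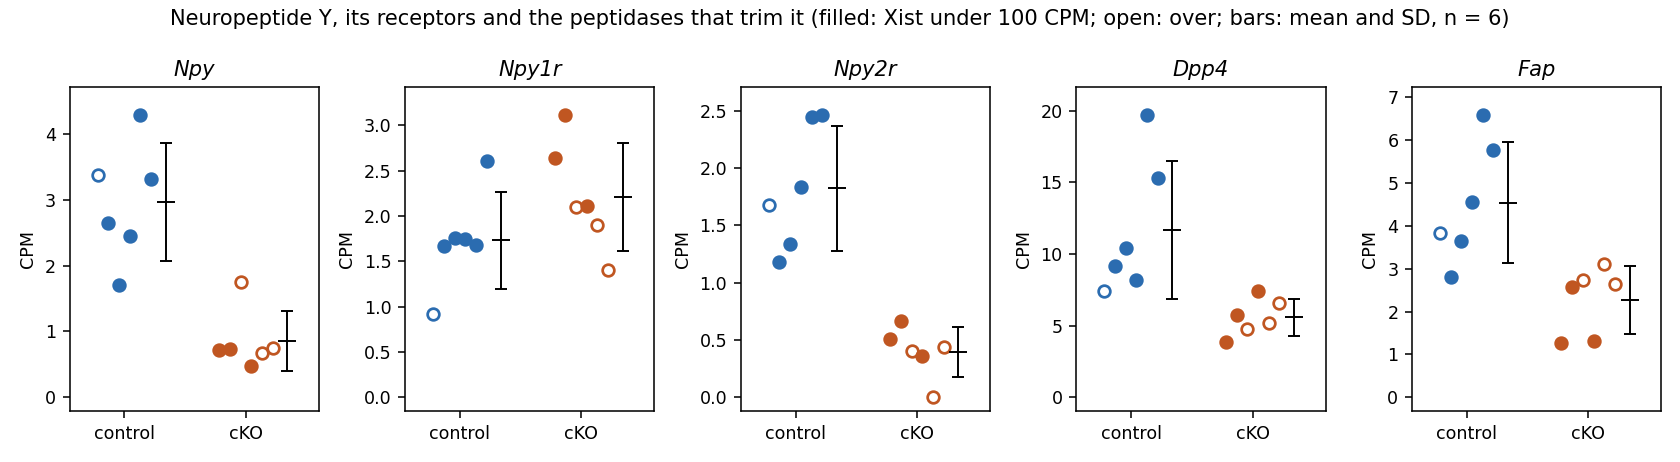
Each point is 1 library on a linear axis of CPM, open where Xist is over 100 CPM, with the mean and SD (n = 6) as bars. Npy, Npy2r, Dpp4 and Fap are lower in cKO libraries, and Npy1r overlaps between groups.

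Of the 16 aldehyde dehydrogenases tested outside the ALDH3B family, 1 was called lower and none higher, a share close to the 4.85% of all genes called lower. Their median log2 fold change was -0.05. The gene called was Aldh3a2, the fatty aldehyde dehydrogenase, which fell from 70.9 ± 6.86 to 59.8 ± 2.11 CPM (SD, n = 6 each; log2 fold change -0.24, SE 0.07, edgeR adjusted p = 0.0381), with all 6 cKO libraries below the controls. In the 8 libraries it was not called (log2 fold change -0.27, edgeR adjusted p = 0.105). Aldh1a1, singled out as the most abundant of the list after its values were seen, averaged 889 ± 96.9 CPM in the controls and 1032 ± 131 CPM in the cKO (SD, n = 6 each; log2 fold change 0.21, edgeR adjusted p = 0.177). Its log2 fold change was 0.27 in the 8 libraries (edgeR adjusted p = 0.0811), and with Xist as a covariate it was 0.30 and called higher (edgeR adjusted p = 0.0348). Aldh3a1 was singled out after its values were seen: it had 33 counts in control and 9 in cKO libraries, too few to pass the filter. It had 1 to 13 counts per library, and the values nearest each other between groups, in control replicate 6 and cKO replicate 5, rest on 1 count each. Without the filter its log2 fold change was -1.96 (edgeR adjusted p = 0.0144).

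Among the other 20 tested alpha-glucosidases and enzymes of glycogen metabolism, 1 was called lower and none higher, a share close to the 4.85% of all genes called lower, with a median log2 fold change of -0.10. Pygl, the glycogen phosphorylase known from liver, fell from 49.3 ± 12.7 to 33.8 ± 1.99 CPM (SD, n = 6 each; log2 fold change -0.54, SE 0.14, edgeR adjusted p = 0.0304), with 5 of 6 cKO libraries below all controls. In the 8 libraries it was not called (log2 fold change -0.40, edgeR adjusted p = 0.168). Gaa and Ganab were singled out for their roles, after their values were seen. Gaa, the lysosomal alpha-glucosidase, averaged 121.8 ± 31.7 and 114.4 ± 12.5 CPM (SD, n = 6 each; log2 fold change -0.09, edgeR adjusted p = 0.721), with a log2 fold change of 0.07 in the 8 libraries. Ganab, the catalytic subunit of the endoplasmic reticulum glucosidase, had 364 ± 25.9 and 395 ± 20.3 CPM (SD, n = 6 each; log2 fold change 0.12, edgeR adjusted p = 0.265), with a log2 fold change of 0.19 in the 8 libraries, where neither was called.

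**Figure D3:**
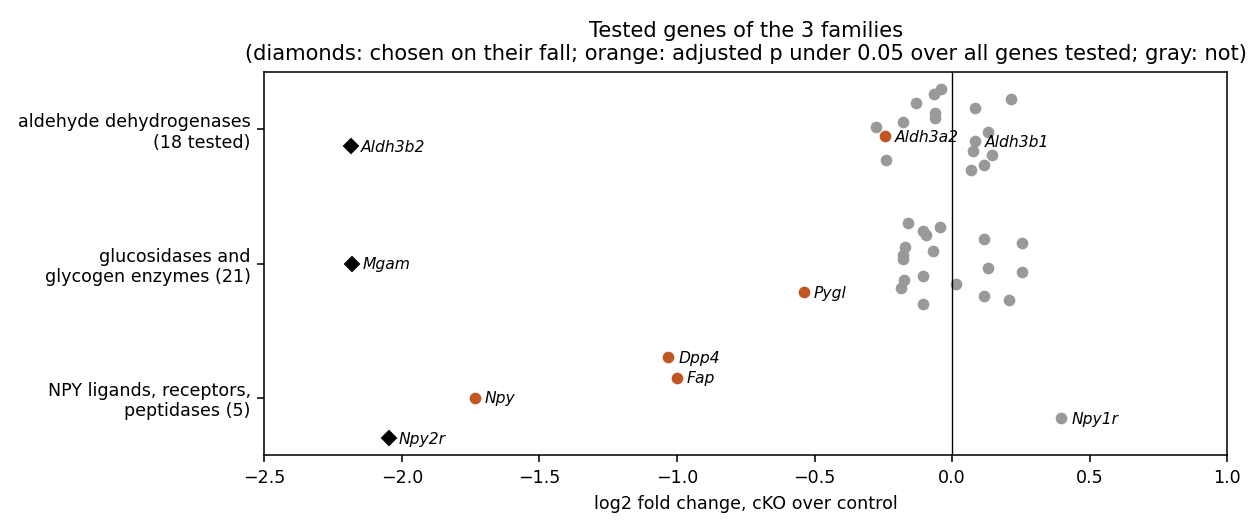
Each point is 1 tested gene, placed by its log2 fold change of cKO over control, with the aldehyde dehydrogenases on top, the glucosidases and glycogen enzymes in the middle and the NPY list below. Diamonds are the 3 chosen genes, orange points were called and gray points were not. Among the genes drawn, Aldh3b2 and Mgam have the lowest values of their lists, and Npy2r lies near Npy, while genes under the filter, such as Aldh3a1, are not drawn.

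The nearest tested genes around the 3 loci did not fall to a similar extent. Their distances ran from 4904 bases (Acy3, after Aldh3b2) to 851495 bases (Trpv6, after Mgam), so some are not close neighbours. Of the 12 nearest tested genes that are not members, 2 on each side, 1 was called lower and none higher, against 4.85% and 3.28% of all genes tested. This was Gucy1a1, a subunit of the nitric oxide receptor, 392505 bases from Npy2r, which fell from 424 ± 50.6 to 290.6 ± 42.3 CPM (SD, n = 6 each; log2 fold change -0.55, SE 0.10, edgeR adjusted p = 0.00481). Leaving out the high-Xist libraries gave -0.43 (edgeR adjusted p = 0.0398). Next to Aldh3b2, Unc93b1 had a log2 fold change of -0.06 and Acy3 one of -0.03, and neither was called. Over the 8 libraries Acy3 had -0.10 and Unc93b1 0.000555, again not called.

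**Figure D4:**
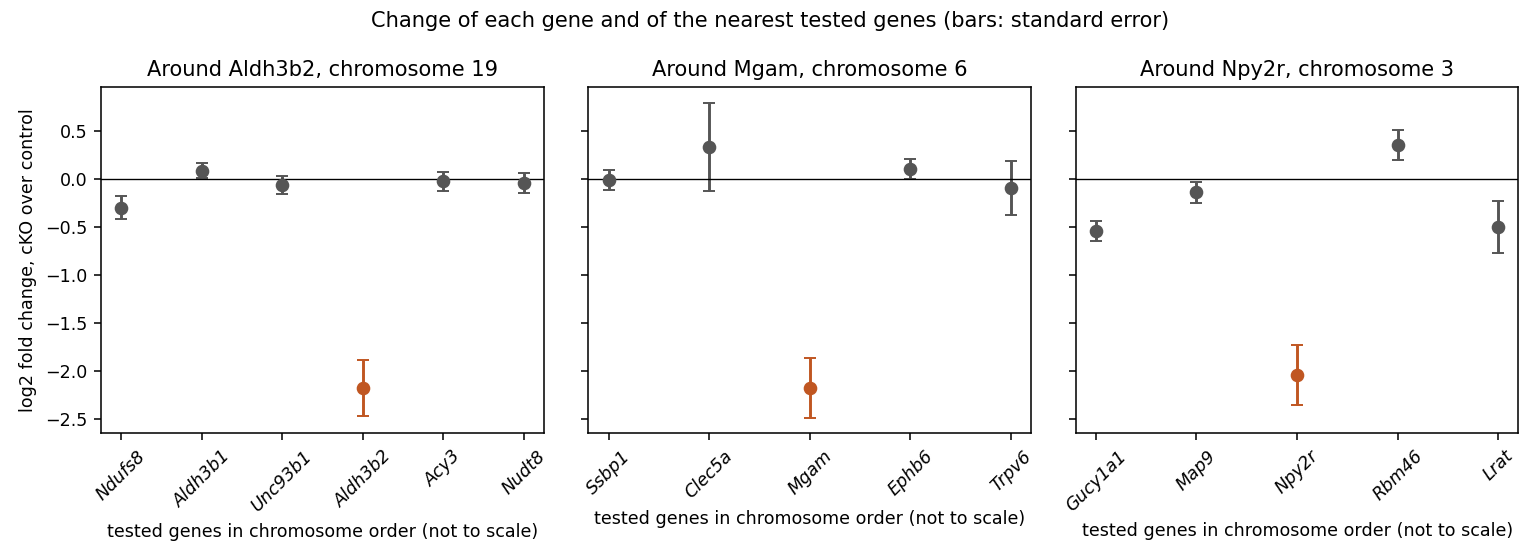
Each point is the log2 fold change of a tested gene with its standard error, in chromosome order around each chosen gene (orange), with the distance not to scale. The chosen genes lie at -2.18, -2.18 and -2.05, and the lowest neighbour, Gucy1a1, lies at -0.55.

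Among tested genes, 19.9% had a lower control mean than Aldh3b2, 24.3% than Mgam and 14.1% than Npy2r, so all 3 are among the less abundant of the tested genes. The study-wide ranking that supplied these genes holds 410 called genes that fell without overlap and average 1 CPM or more. In it Aldh3b2, Mgam and Npy2r were 3rd, 4th and 5th, just ahead of Cldn1 at -1.96.

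The cKO libraries differed in how much Nr2f2 RNA they kept, 78.9, 118.6, 75.4, 78.8, 50.2 and 53.6 CPM in replicates 1 to 6. Across these 6 libraries, log2 CPM of Aldh3b2 followed that of Nr2f2 with Pearson's r of 0.958 (exact permutation p = 0.00417, adjusted 0.0208 over 5 genes) and Spearman's rho of 0.943 (exact permutation p = 0.0167, adjusted 0.0417). Without the 2 libraries farthest from the median of Nr2f2, replicates 5 and 2, r was 0.819 over 4 libraries. Replicate 2, with the most Nr2f2, had the highest Aldh3b2, Mgam, Npy2r and Npy1r of the cKO libraries.

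For Npy1r, r was 0.870 (exact permutation p = 0.0264, adjusted 0.0660) and rho 0.943 (exact permutation p = 0.0167, adjusted 0.0417), and r without the same libraries was 0.931. Npy1r was therefore higher in the cKO libraries that kept more Nr2f2, while its mean was 2.21 CPM in cKO and 1.73 CPM in control libraries. For Npy2r r was 0.692 (exact permutation p = 0.144, adjusted 0.194; rho 0.771, p = 0.103, adjusted 0.171) and for Mgam 0.671 (p = 0.156, adjusted 0.194; rho 0.486, p = 0.356, adjusted 0.356). Without replicates 5 and 2 these turned to -0.119 and -0.660, so they rest on those libraries. For Aldh3b1 r was 0.251 (exact permutation p = 0.6, adjusted 0.6; rho 0.657, p = 0.175, adjusted 0.219), and r without replicates 5 and 2 was 0.999 over 4 libraries, above that of Aldh3b2. The 3 cKO libraries with high Xist have the lowest Nr2f2, and 3 libraries on each side are too few for a value within them, so the relation and Xist cannot be told apart.

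**Figure D5:**
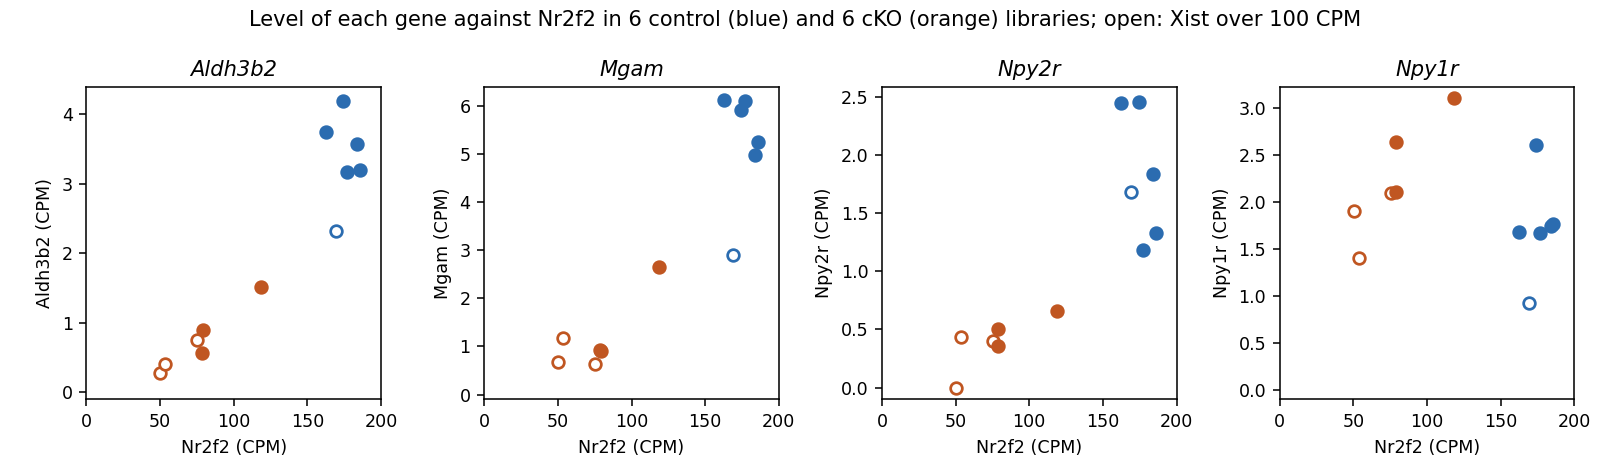
Each point is 1 library, with Nr2f2 in CPM on the horizontal axis and the named gene in CPM on the vertical axis, control in blue, cKO in orange, and open where Xist is over 100 CPM. The cKO points of Aldh3b2 rise with Nr2f2 toward replicate 2 at 118.6 CPM, and the cKO points of Npy1r reach above most controls.

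The genes whose log2 CPM varied most like each chosen gene within groups, over 12 libraries and 14261 genes compared, were found after group means were removed. For Aldh3b2 they were Islr (r = 0.977), Ddr2 (0.963) and Tpm2 (0.962). For Mgam they were Ecel1 (r = 0.932), Slc44a5 (0.928) and Magec2 (0.919). For Npy2r they were Gm10037 (r = 0.934), Lin7a (0.931) and 4930558J18Rik (0.920). In the 8 libraries these were 0.983, 0.884 and 0.868 for Aldh3b2, 0.853, 0.875 and 0.827 for Mgam, and 0.575, 0.625 and 0.807 for Npy2r. Over 12 libraries, r was 0.9 or more with Aldh3b2 for 63 genes, with Mgam for 3 and with Npy2r for 6. The libraries differ in depth and Xist level, whose part in these correlations was not tested. The correlations are descriptions without a test.

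Cell type markers moved between groups as well. For comparison, 4.85% of all genes tested were called lower and 3.28% higher with 12 libraries. In the 8 libraries 1103 of 15586 genes tested were called, 529 of them lower. The interstitial list holds Nr2f2 itself, whose fall is set by the design. Without it, the summed level of 4 interstitial markers ran from 941 to 1243 CPM in control and from 580 to 1021 CPM in cKO libraries, with Tcf21 and Wnt5a called lower. In the 8 libraries the sums ran from 1147 to 1243 CPM and from 870.0 to 1021 CPM without overlap, with 2 called lower. That of 5 contractile markers ran from 323 to 440 CPM and from 179 to 280 CPM, with all 5 called lower, and from 363 to 440 CPM and from 199 to 280 CPM in the 8 libraries, with 4 called lower and Actg2 not called (edgeR adjusted p = 0.0604). Fetal Leydig markers, 4 in number, ran from 1559 to 2905 CPM and from 841 to 1744 CPM, with 3 called lower, and from 2133 to 2905 CPM and from 1310 to 1744 CPM in the 8 libraries, again with 3 called lower.

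Macrophage markers, 4 in number, went the other way, from 23.5 to 30.4 CPM in control and from 35.6 to 45.5 CPM in cKO libraries without overlap (23.5 to 30.4 and 38.7 to 45.5 CPM in the 8 libraries). Of these, Csf1r (log2 fold change 0.44, edgeR adjusted p = 0.00749) and Cx3cr1 (0.92, edgeR adjusted p = 0.00185) were called higher, and both were also called in the 8 libraries, at 0.53 and 1.19. Among 3 adrenal cortex markers, Mc2r was called higher with 12 and with 8 libraries. Cyp11b1 (log2 fold change 0.54, edgeR adjusted p = 0.163) and Cyp21a1 (-1.03, edgeR adjusted p = 0.0754) went opposite ways. Neither was called with 12 or with 8 libraries. Among 4 mesonephric epithelium markers, 3 were tested, and Pax8 was called higher with 12 libraries only. The endothelial list held 4 markers, of which only Tek was called, lower and with 12 libraries only. Pecam1, Cdh5 and Kdr had log2 fold changes of 0.006, 0.03 and 0.11. The summed level of the list overlapped, with 285 to 415 CPM in control and 286 to 350 CPM in cKO libraries. Of 5 ovarian markers none was called with 12 libraries, but in the 8 libraries Foxl2 (log2 fold change 1.45, edgeR adjusted p = 0.00958), Fst (0.62, edgeR adjusted p = 0.0216) and Bmp2 (0.67, edgeR adjusted p = 0.0379) were called higher in cKO. Their summed level there ran from 26.9 to 31.1 CPM in control and from 30.9 to 42.3 CPM in cKO libraries, so the 8 libraries also differ in these markers. Of 4 Sertoli and 4 germ cell markers none was called. Of 7 neuronal and glial markers 5 were tested and none called, with summed levels of 28.5 to 37.0 CPM in control and 27.9 to 34.9 CPM in cKO libraries (28.5 to 37.0 and 29.3 to 32.9 CPM in the 8 libraries). The part of all these markers in the falls of Aldh3b2, Mgam, Npy2r and Npy was not tested, and fewer cells of a type cannot be told apart from less RNA per cell in whole testes.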

How the data were processed

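RNA-seq libraries of 6 control and 6 cKO pools of E14.5 testes were analysed, grouped by genotype in the labels. The authors deposited raw counts per gene, not normalized. Per the submitters' processing notes and the study's methods, read pairs were trimmed with Trim Galore 0.6.7, aligned to mm10 with STAR 2.5 and counted by strand on RefSeq gene models with featureCounts (Subread 1.5.0-p1). Depth differed by library, and a gene with few counts is measured less precisely.

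Groups were compared on these counts by edgeR 4.0.16 in R 4.3.3 (TMM scaling, filterByExpr with a minimum count of 10 and total of 15, glmQLFit and glmQLFTest, no covariate). Benjamini-Hochberg adjustment ran over the 15572 genes tested, at a threshold of 0.05. Standard errors of log2 fold changes were derived from the F statistic (the absolute value over the root of F). CPM were computed on TMM library sizes, and log2 CPM added a prior count of 2. Intervals and the floor of 3 counts cover counting error only or, for fold changes, the spread between pools at 95%. Each pool is a separate sample by its label, but no label ties pools to separate litters, so p-values measure the spread between these pools. Lengths came from the longest GENCODE M21 transcript. The fits were tested on simulated data.

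The 7 genes and all lists were chosen with earlier results of these data known. Named genes were the members, called genes of their 3 family lists, 2 tested neighbours on each side the 3 genes most like each chosen gene, the gene ranked just after them by its fall, Nr2f2, Xist and cell type markers. Other genes were chosen after their values were seen. Alternatives were library totals, RLE scaling, no filter, a stricter filter, another prior count, DESeq2 1.42.0, limma-voom (limma 3.58.1), a replicate block, Xist as a covariate, the 8 libraries with low Xist and leaving out each library in turn.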

Additional observations from a re-analysis of the deposited data

Results flagged for a closer look

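Of 12 sets of 6 libraries tested for a library far from the rest, 2 were marked, both for Mgam. The gaps were taken on linear CPM, and they differ on log2 CPM. Chance marks about 1 in 20 such sets if values follow a normal distribution, which low counts need not do. In control libraries, replicate 1 (2.89 CPM) lay apart from the other 5, with a gap to the nearest of 0.650 of the group's range, against a critical value of 0.625. In cKO libraries, replicate 2 (2.64 CPM) lay apart with a gap of 0.732 of the range. Control replicate 1 has the highest Xist of all libraries, and cKO replicate 2 has the most Nr2f2 of the cKO libraries. Their part in these gaps was not tested.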

How the results depend on the processing

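In every alternative run, the log2 fold changes of Aldh3b2, Mgam and Npy2r stayed negative, from -2.45 to -2.01, from -2.53 to -2.04 and from -2.17 to -1.94 as single libraries were left out. The count of called genes was 1266, 1919 with DESeq2, and 816 (without cKO replicate 4) to 3106 (without control replicate 1) with 1 library left out, and that of genes called lower 756 and 497 to 1635, the extremes from the same 2 libraries. The causes were not tested. Aldehyde dehydrogenases called lower besides Aldh3b2 numbered 1, or 0 under the replicate block, in the 8 libraries, with library totals and with Xist as a covariate, 2 without the filter and 0 to 1 with 1 library left out. Aldh3a2 was called in 10 of 21 alternatives (adjusted p 0.0108 to 0.105). Glycogen enzymes called lower besides Mgam numbered 1, or 0 under the replicate block, in the 8 libraries and under limma-voom, and 0 to 1 with 1 library left out, with Pygl called in 12 of 21 alternatives (adjusted p 0.00520 to 0.168). Those called higher numbered 0, or 1 (Stbd1) with DESeq2, library totals and Xist as a covariate, and 0 to 1 with 1 library left out (Phka2, without control replicate 1). Npy was called in 21 of 21, Dpp4 in 20 and Fap in 16. Npy1r had a log2 fold change of 0.60 with Xist as a covariate. Neighbours called numbered 1 to 2 with 1 library left out, the second being Ndufs8 without control replicate 1, in alternatives chosen after seeing the data. The relation of Aldh3b2 to Nr2f2 had r = 0.819 without the 2 farthest libraries and 0.910 to 0.984 with 1 left out, and that of Aldh3b1 -0.0397 to 0.997 (the highest without cKO replicate 2).

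Control and cKO libraries share replicate numbers, but nothing in the labels says that a number marks a shared litter or day. Deviations of same-numbered libraries correlated between -0.334 and 0.242, so the numbers were not used as pairs. With a replicate block the log2 fold changes were -2.22 for Aldh3b2, -2.24 for Mgam, -2.05 for Npy2r, 0.08 for Aldh3b1 and 0.41 for Npy1r. Depth limits what can be said of Npy2r in cKO replicate 5, Aldh3b3 and Npy5r.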
